A study of Mus musculus with 8 samples.

Results

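The 38 genes described here are the nuclear genes whose symbols name respiratory complexes II and III, the ATP synthase, or the factors that assemble complexes II and III. They were taken from the count table by symbol alone: Sdha to Sdhd, symbols starting with Sdhaf, Uqcr, Uqcc or Atp5, and Cyc1 and Bcs1l, leaving out entries marked as pseudogenes. The table has 48440 entries, and all 38 genes were among the 13771 with enough counts to be tested. There are 8 genes for complex II (4 subunits, 4 assembly factors), 13 for complex III (9 subunits, 4 assembly factors) and 17 with an ATP synthase name. Of the 17, 15 are subunits, while Atp5s and Atp5sl carry the name only.

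The libraries hold RNA of cardiomyocytes purified from C57BL6/J mouse hearts at postnatal day 2. There was 1 male and 1 female heart from each of 4 litters, giving 4 male and 4 female libraries, each of 1 heart. No pup was treated or carried an engineered allele according to the labels, so sex and litter are the comparisons that the design allows. With 2 hearts per litter, a litter difference cannot be told apart from a difference in how or when its hearts were collected and processed. How the cells were purified is not given in the sources used here, and the labels name both polyA RNA and a stranded kit for total RNA.

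Complex II (succinate dehydrogenase) passes electrons from succinate to coenzyme Q, and complex III passes them from coenzyme Q to cytochrome c while pumping protons. The ATP synthase lets the protons back through a ring of c subunits in the membrane, and the turning ring drives ATP formation in the catalytic head. The heart depends on this chain, and cardiomyocytes fill with mitochondria in the weeks around birth as they turn from glycolysis to oxidation of fatty acids. Complex II is encoded wholly in the nucleus, whereas complex III and the ATP synthase also need cytochrome b and ATP synthase subunits a and A6L from the mitochondrial genome.

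Total counts ran from 14226342 in the female of litter 3 to 24910243 in the male of litter 1. Mitochondrially encoded genes took 13.4% to 15.2% of counts in 7 libraries and 18.5% in the male of litter 4. Summed over 8 cardiomyocyte markers the level was 54886 to 69515 CPM (counts scaled to a library of 1e+06 counts, after TMM normalization), against 16.0 to 148 CPM for 8 endothelial, 32.4 to 243 CPM for 8 fibroblast and 5.64 to 10.05 CPM for 7 macrophage markers, of which Adgre1, C1qa and C1qb were at 0 in at least 1 library. Litter mates deviated together from the means of their sexes, and over the 38 genes their correlation was 0.59, 0.65, 0.65 and 0.56 in litters 1 to 4, given as a description across genes of libraries from the same litter. Levels in bulk RNA cannot tell fewer cells of a type from less RNA per cell.

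The 38 genes took 2.696% (95% Wilson interval 2.69 to 2.703%) of all counts in the male of litter 3, the lowest share, and 3.10% (3.10 to 3.11%) in the female of litter 1, the highest. These intervals cover counting error only. Per kilobase of transcript, the ATP synthase genes led. Atp5b, the catalytic beta subunit, had 3136 ± 185 CPM per kilobase (SD, n = 8), the c-ring gene Atp5g3 had 2108 ± 166 and Atp5a1, the alpha subunit, 1911 ± 146. Next came the stalk genes Atp5h (1501 ± 144) and Atp5o (1498 ± 141) and the complex III hinge gene Uqcrh (1274 ± 117 CPM per kilobase). Atp5h and Atp5o did not differ beyond their spread, while Uqcrh lay below both by more than its SD. These SDs are over libraries. Differences between genes, here and below, also depend on the transcript length used and were not tested.

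The 4 complex II subunits stood close together on the per-kilobase scale. Sdhb, the iron-sulfur subunit, had 535 ± 48.8, Sdha, the flavoprotein, 532 ± 31.3, Sdhd 513 ± 52.9 and Sdhc 389 ± 25.4 CPM per kilobase (SD, n = 8). The membrane anchors are Sdhc and Sdhd, and of the 4 only Sdhc lay apart from the rest by more than their SD. The level of Sdhc rests on a length of 1179 bases, while its longest annotated coding transcript has 3171. Complex III subunits spread more widely, from 303 ± 30.8 CPM per kilobase for Uqcrq to Uqcrh at the top. The electron carriers Cyc1 (598 ± 46.1) and Uqcrfs1, the Rieske iron-sulfur protein (544 ± 41.9), and the core subunits Uqcrc1 (541 ± 51.9) and Uqcrc2 (524 ± 38.3) lay between. Uqcrfs1, Uqcrc1 and Uqcrc2 did not differ beyond their SD, and Cyc1 lay above them by more than its own.

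Assembly factors were far less abundant than subunits. Their median was 29.6 CPM per kilobase over 8 genes, against 751 over 28 subunits. Uqcc2, which is needed to make cytochrome b, was the highest of them at 143 ± 22.0 and Bcs1l, which inserts the Rieske protein into complex III, the lowest at 9.47 ± 1.33 CPM per kilobase. Among the subunits, Atp5l stood alone at 9.18 ± 1.69 CPM per kilobase, with 75 to 140 counts per library. Of its 100-base transcript windows 74.2% occur in other annotated genes too, so its level and those of 7 other members that share at least 10% of their windows (Atp5g2 99.6%, Sdhaf1 61.9%, Atp5g1 42.2%, Atp5h 35.8%, Uqcrc2 22.8%, Uqcrb 16.9%, Atp5f1 10.7%) are uncertain.

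**Figure D1:**
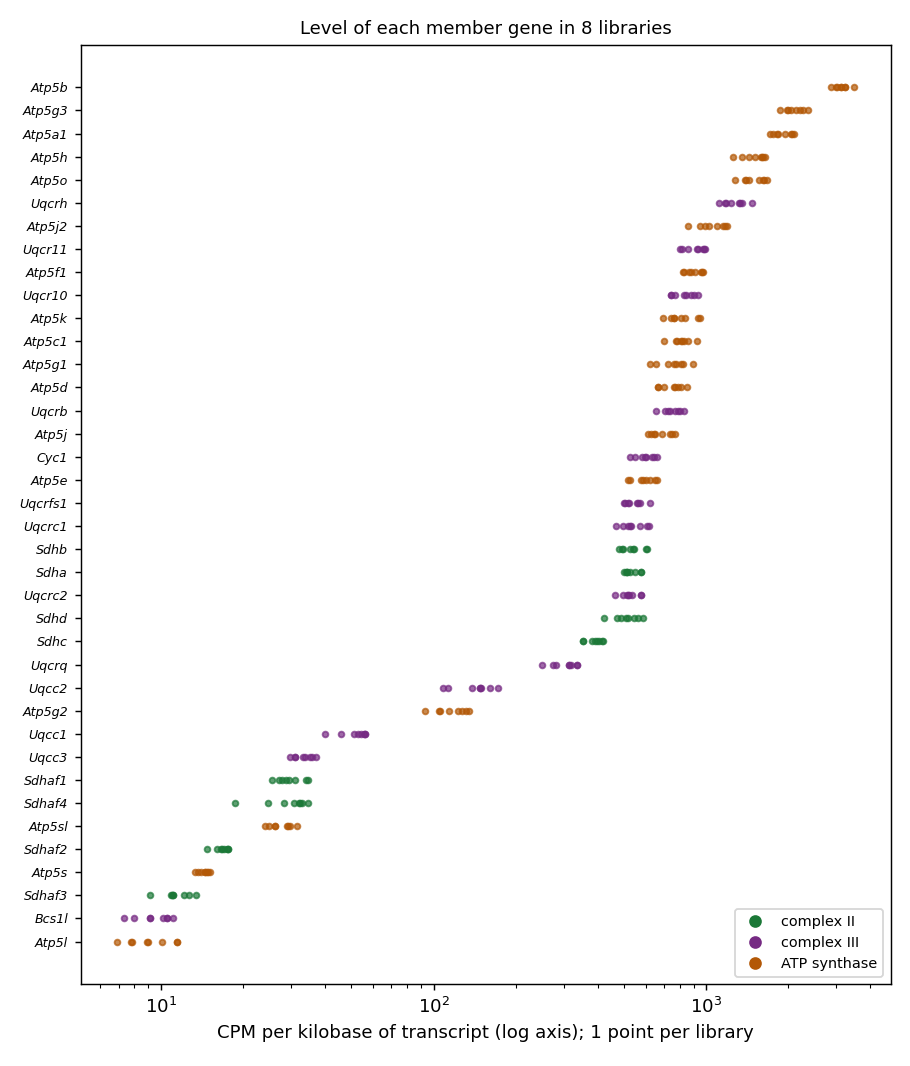
Level of each of the 38 genes in the 8 libraries, in CPM per kilobase of transcript on a log axis, 1 point per library and genes ordered by mean. Subunits of all 3 complexes lie to the right, from Atp5b at 3136 down to Uqcrq at 303, and assembly factors lie to the left, together with Atp5g2, Atp5s, Atp5sl and, at 9.18, Atp5l.

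The spread of a gene over the 8 libraries was small. The coefficient of variation had a median of 9.04% and ran from 4.33% for Atp5s to 18.4% for Atp5l, with 18.0% for Sdhaf4 and 15.4% for Uqcc2. The highest library exceeded the lowest by a median of 1.29 times. The lowest library was the male of litter 3 for 16 genes, the female of litter 2 for 11 and the female of litter 3 for 6. The highest was the female of litter 1 for 14 and the male of litter 4 for 12.

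Summed over the 38 genes, the level was 30155 and 30941 CPM in the male and the female of litter 1, 27520 and 26989 in litter 2, 26361 and 27819 in litter 3, and 29857 and 30891 in litter 4. On this TMM scale litters 1 and 4 lay above litters 2 and 3 in both hearts, without overlap. As a plain share of all counts they overlapped, with 2.836% in the male of litter 4 and 2.842% in litter 3's female. The 17 ATP synthase genes made up most of the sum, with 17891 to 21145 CPM, followed by complex III (5397 to 6553 CPM) and complex II (3065 to 3601 CPM). The 8 assembly factors together had 320 and 293 CPM in the male and the female of litter 3 and 360 to 389 CPM in the other 6 libraries, so that litter 3 lay below all others.

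**Figure D2:**
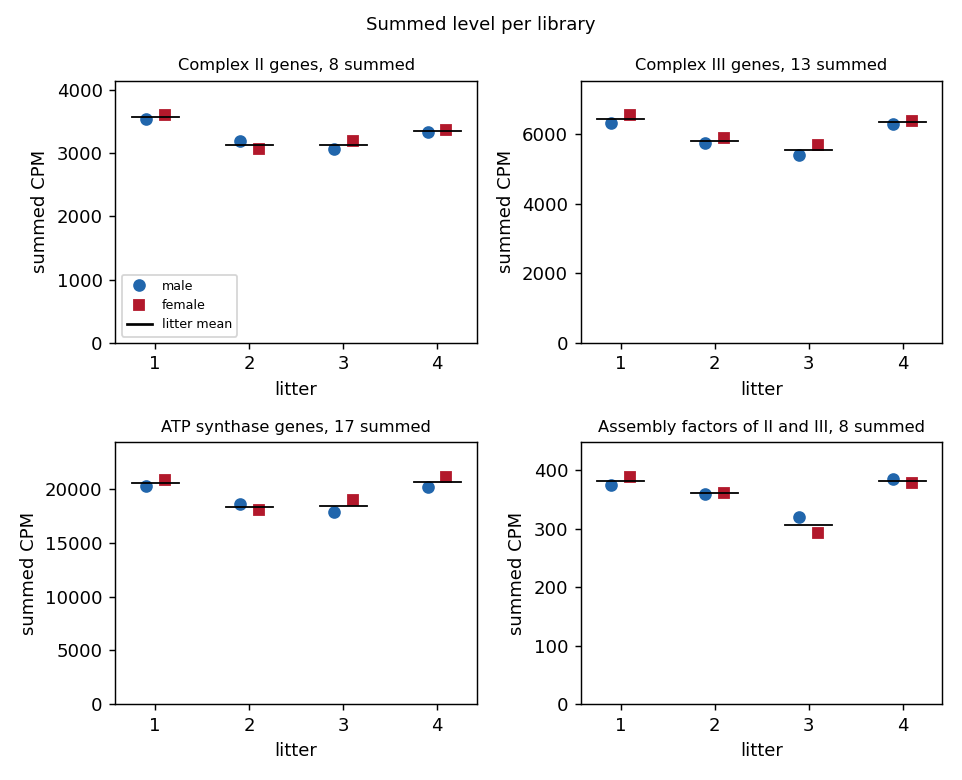
Summed CPM of the complex II, complex III and ATP synthase genes and of the assembly factors, by litter, with circles for males, squares for females and a line at the mean of the 2 hearts. Complex II and the ATP synthase were low in litters 2 and 3 alike, and the assembly factors were lowest in litter 3 (293 and 320 CPM, others 360 to 389).

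Sex was compared first, to ask whether these genes differ between male and female hearts. By edgeR's quasi-likelihood test with Benjamini-Hochberg adjustment over 13771 genes, 0 of the 38 genes differed, where the background is 0.0436% of genes called. None had an unadjusted p under 0.05, against 306 of the 13771 genes, and DESeq2 also called 0 of the 38. The median log2 difference, male minus female, was -0.02, and over all genes tested it was -0.00. The sign of this median was not stable, since it was 0.01 when litter 1's female, litter 3's male or litter 4's female was left out. Standard errors ran from 0.08 to 0.20 on the log2 scale, which is the precision behind these values.

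The smallest p was that of Uqcrc1, a core subunit of complex III. Its level was 869, 848, 767 and 861 CPM in the males of litters 1 to 4 and 934, 994, 815 and 1008 CPM in the females. Each female lay above the male of the same litter, but the ranges of the sexes overlapped. The log2 difference was -0.17 (SE 0.09, edgeR adjusted p = 1), and with litter as a block it was -0.16 (SE 0.05, adjusted p = 0.295).

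Males lay below females in all 4 litters for 8 of the 38 genes, where the background is 9.36% of genes, and above in all 4 for 0, against a background of 10.9%. The 8 were Cyc1, Uqcrc1, Uqcrq and Bcs1l of complex III and Atp5d, Atp5e, Atp5g1 and Atp5g3 of the ATP synthase. With litter as a block, 0 of 38 genes passed (background 0.211%). An unadjusted p under 0.05 was found for 4 of the 38, against 1592 of all 13771 genes tested. The 4 were Uqcrc1, Atp5e, Atp5d and Uqcrq. In that fit 5 of 8 fibroblast markers were higher and 1 of 8 endothelial markers was lower in males, and their part in these values was not tested.

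Litter was then compared, with sex kept in the model. In edgeR's quasi-likelihood test of the 3 litter coefficients together, 21 of 38 genes differed between litters, where the background is 32.1%. By complex these were 2 of 8 genes of complex II, 8 of 13 of complex III and 11 of 17 of the ATP synthase. On simulated counts this joint test gave a larger share of false calls than its threshold of 0.05 states. Among genes with a mean of at least 50 counts, 19 of the 38 (50%) differed, against 36.7% of all genes. In the main fit the log2 range over litters was nevertheless small, with a median of 0.26 over the members against 0.37 over all genes tested. The background genes were not matched to the members in level. Uqcc2 had the smallest adjusted p of the 38 (0.00105, log2 range 0.59), followed by Atp5g1 (0.00279, 0.43), Atp5k (0.00547, 0.38), Atp5j2 (0.00677, 0.39) and Uqcc1 (0.00771, 0.38). With litter 3 left out, Atp5k kept its call and the other 4 lost theirs, with ranges of 0.22 for Uqcc2, 0.20 for Atp5g1, 0.23 for Atp5j2 and 0.086 for Uqcc1. The call of Atp5k was lost without the male of litter 1, and that of Uqcc1 without the female of litter 3. With 1 library left out, the ranges of Atp5k and Uqcc1 were 0.33 to 0.44 and 0.32 to 0.45.

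Atp5b, the catalytic beta subunit, was among the 17 genes that did not pass. It had 5886 and 6087 CPM in litter 1, 5603 and 5398 in litter 2, 5680 and 6068 in litter 3 and 5884 and 6529 in litter 4, male before female. Both hearts of litter 2 lay below the other 6, the other litters overlapped, and the log2 range was 0.17 (edgeR adjusted p = 0.264). Sdha (0.17, adjusted p = 0.154) and Atp5a1 (0.22, adjusted p = 0.0531) did not pass either, and Atp5s had the smallest range of all members, 0.13. The excess over all genes varied with the fit. With litter 3 left out, 4 of 38 genes (Atp5k, Atp5g2, Sdhb and Uqcrh, 10.5%) differed between the other 3 litters, against 13.7% of all genes. The count of 21 (55.3%) fell to 7 (18.4%, all genes 21.5%) and 10 (26.3%, all genes 21.4%) without the male or the female of litter 1, and to 13 (34.2%, all genes 28.7%) when the female of litter 2 was omitted. It was 10 (26.3%, all genes 24.1%) and 11 (28.9%, all genes 21.8%) when the male or female of litter 3 was. With library size alone as scaling it was 13 (34.2%, all genes 34.3%) and without sex in the model 10 (26.3%, all genes 24.3%). The members thus lay near or below the share of all genes in several of these fits. In others the excess was as large or larger, with 22 genes (57.9%, all genes 23.6%) in DESeq2's test and 29 (76.3%, all genes 23%) with no filter on low counts, which also adds low genes to those tested. It was 19 (50%, all genes 27.7%) and 20 (52.6%, all genes 28.4%) without the male or the female of litter 4.

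**Figure D3:**
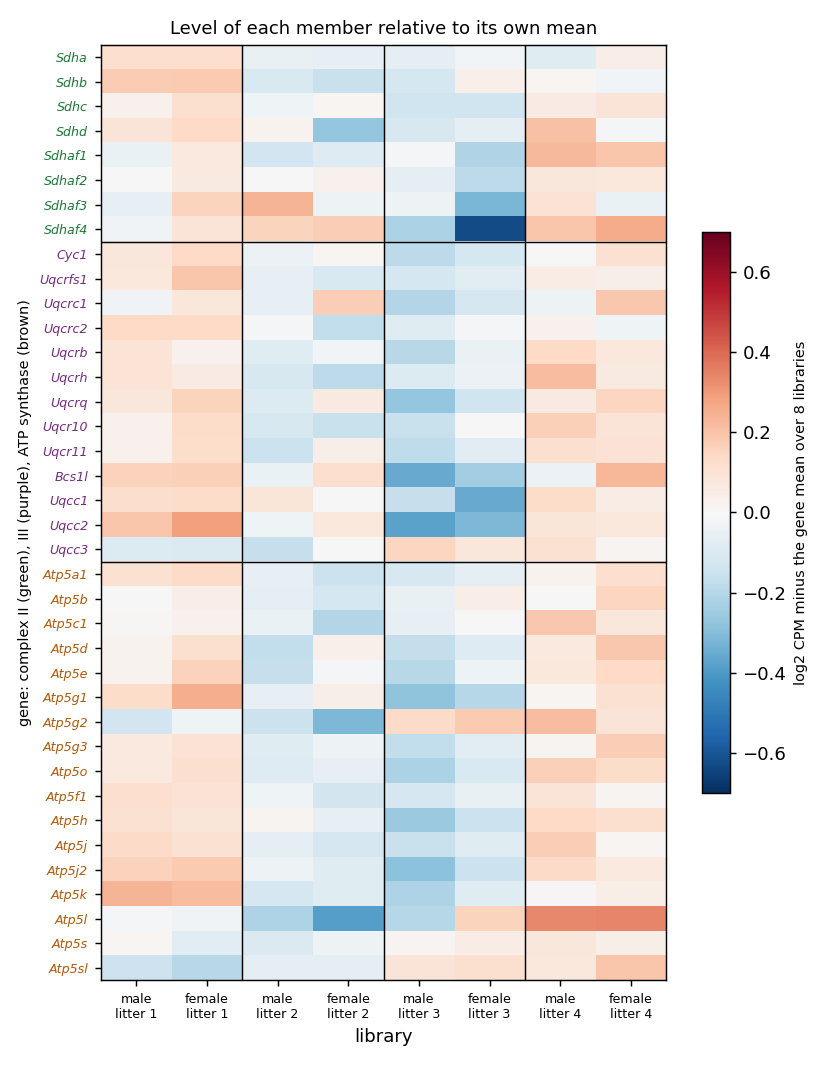
Level of each gene in each library as log2 CPM minus the gene's mean over the 8 libraries, with libraries ordered by litter and genes by complex. Most rows are blue in both hearts of litter 3 and pale red in litters 1 and 4, while the litter means of Uqcc3, Atp5g2, Atp5s and Atp5sl lie above 0 in litter 3.

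Each litter was next set against the mean of the other 3, in comparisons that share libraries and are not independent. Litter 3 stood apart most: 16 of the 38 genes were lower there, where the background is 14.8% of genes called lower, and 1 was higher, where the background is 13.6%. The median log2 change of the 38 genes was -0.16, with 34 below 0, and that of all genes tested was 0.00. Lower genes were 2 of 8 in complex II, 7 of 13 in complex III and 7 of 17 in the ATP synthase. With library size alone as scaling, 11 were lower and 1 higher, with the calls of Sdhc, Uqcr11, Atp5d, Atp5g3 and Atp5k lost, and over all genes the split moved from 1871 higher and 2032 lower to 2419 higher and 1698 lower.

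The largest changes in litter 3 were in assembly factors, 4 of 8 of which were lower, with a median of -0.28 against -0.16 for the 28 subunits. Uqcc2 (chr17:27122663-27133916, minus strand, GRCm38) had 51.4 CPM in the male and 53.6 CPM in the female of litter 3. In the other libraries it had 76.4 and 81.4 CPM in litter 1, 65.4 and 70.3 in litter 2, and 70.8 and 70.3 in litter 4, male before female. Both hearts of litter 3 lay below the other 6, and the log2 change was -0.46 (SE 0.06, edgeR adjusted p = 0.000312).

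Its partner Uqcc1 (chr2:155846894-155930310, minus strand), which binds Uqcc2 on newly made cytochrome b, had 120 and 105 CPM in litter 3, against 134 to 147 CPM elsewhere. It was lower by a log2 change of -0.34 (SE 0.06, edgeR adjusted p = 0.00181). Bcs1l (chr1:74588289-74592443, plus strand) had 13.9 and 15.0 CPM in litter 3, against 17.2 to 20.9 CPM elsewhere, a change of -0.40 (SE 0.09, adjusted p = 0.00716). For both genes the 2 hearts of litter 3 lay below every other heart. Without the female of litter 3, Uqcc1 changed by -0.28 and did not pass, and Bcs1l did not pass without the male (-0.42) or without the female (-0.38) of litter 3.

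Sdhaf4 (chr1:23995939-24005656, minus strand), which helps Sdha join Sdhb, had the largest change of the 38 genes. Its level was 16.5 and 12.5 CPM in litter 3 against 18.9 to 23.0 CPM in the other 6 libraries, a change of -0.54 (SE 0.11, edgeR adjusted p = 0.00346). Both hearts lay below the others, the female farthest. Without the female of litter 3 the change was -0.33 and did not pass, and without its male it was -0.80. The other complex II assembly factors, Sdhaf1 (-0.14), Sdhaf2 (-0.16) and Sdhaf3 (-0.23), did not pass. Uqcc3, the fourth complex III factor, had a change of 0.16 (SE 0.08, adjusted p = 0.149), with 30.4 and 28.9 CPM in litter 3 and 24.4 to 29.4 CPM elsewhere.

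In complex III, 4 subunits were lower in litter 3. Uqcrq, a small accessory subunit, had 381 and 416 CPM in litter 3, against 428 to 510 CPM elsewhere, a change of -0.27 (SE 0.05, edgeR adjusted p = 0.00353). Uqcrc1 (-0.21, SE 0.06), Cyc1 (-0.21, SE 0.05) and Uqcr11 (-0.17, SE 0.06) followed, with adjusted p-values of 0.0165, 0.0139 and 0.0454. Both hearts of litter 3 had the lowest levels of the 8 for Uqcrq, Uqcrc1 and Cyc1, but not for Uqcr11. In DESeq2's test, and in edgeR with DESeq2 size factors, Uqcr11 did not pass. Uqcrc2, the other core subunit, changed by -0.06 (SE 0.06, adjusted p = 0.483), and the difference between the core subunits was not tested. Of the 4 calls, that of Uqcrq held when any 1 library was left out. Uqcrc1 did not pass when the male of litter 1 (-0.20) or litter 3's female (-0.17) was omitted, and Cyc1 did not pass without the male of litter 1 or without either heart of litter 3 (-0.20 to -0.21). Uqcr11 did not pass in 6 of the 8 fits that left out 1 library, with changes of -0.15 to -0.18; the calls that held were the ones omitting litter 2's male or litter 4's female.

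Of the complex II subunits, Sdhc alone passed. It had 416 and 415 CPM in litter 3, against 448 to 494 CPM elsewhere, below which both hearts lay, a change of -0.18 (SE 0.05, edgeR adjusted p = 0.0243). Sdha and Sdhb, which carry the flavin and the iron-sulfur clusters, both had a change of -0.06 and did not pass. The call of Sdhc was lost without either heart of litter 1 or of litter 3, at changes of -0.16 to -0.21.

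In the ATP synthase the catalytic head was counted with its gamma, delta and epsilon subunits. Lower genes were 1 of 5 there, 2 of 3 in the c ring, 2 of 4 in the stalk and 2 of 3 other membrane subunits. Atp5g1, a c-ring gene on chromosome 11, had 479.7 and 507 CPM in litter 3, against 561 to 694 CPM elsewhere, a change of -0.32 (SE 0.05, edgeR adjusted p = 0.00116). Atp5j2, subunit f of the membrane part, had 368 and 405 CPM against 423 to 509 CPM (-0.29, SE 0.06, adjusted p = 0.00437). Atp5h, subunit d of the stalk, had 724 and 782 CPM against 834 to 954 CPM (-0.27, SE 0.06, adjusted p = 0.00501). For each of the 3 genes, both hearts of litter 3 lay below the other 6. Atp5g1 passed whichever library was left out, whereas Atp5j2 (-0.20) and Atp5h (-0.20) did not pass without the male of litter 3.

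Atp5o, the stalk subunit that links to the head, changed by -0.22 (SE 0.06, edgeR adjusted p = 0.013) and also had its 2 lowest levels in litter 3, 988 and 1070.1 CPM against 1084 to 1292 CPM. Without the male of litter 3 its change was -0.17 and did not pass. Atp5k, subunit e (-0.20), Atp5d, the rotor subunit delta (-0.17), and Atp5g3 (-0.16) passed with litter 3 overlapping other libraries. These calls were lost without the male of litter 1 or either heart of litter 3 for all 3 genes, at changes of -0.14 to -0.26, and also when litter 1's or litter 2's female was omitted for Atp5d and Atp5g3 and without the male of litter 2 for Atp5g3 (-0.15 to -0.18). With DESeq2 size factors the call of Atp5g3 was also lost. Atp5b changed by -0.00 (SE 0.06) and Atp5a1 by -0.12 (SE 0.06, edgeR adjusted p = 0.147). The single higher gene was Atp5g2, at 82.4 and 85.3 CPM in litter 3 and 60.4 to 87.1 CPM elsewhere (0.21, SE 0.07, adjusted p = 0.0381), and DESeq2 did not call it. It did not pass in 5 of the 8 fits that left out 1 library (0.15 to 0.27), which omitted litter 1's male, litter 2's female, litter 4's female or either heart of litter 3. Atp5s and Atp5sl, with changes of 0.05 and 0.14, did not pass. The 10 members not yet described also did not pass, with changes of -0.16 to -0.04: Sdhd, the complex III subunits Uqcrfs1, Uqcrb, Uqcrh and Uqcr10, the rotor subunits Atp5c1 (gamma) and Atp5e (epsilon), the stalk subunits Atp5f1 (b) and Atp5j (F6), and Atp5l (g) of the membrane part.

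**Figure D4:**
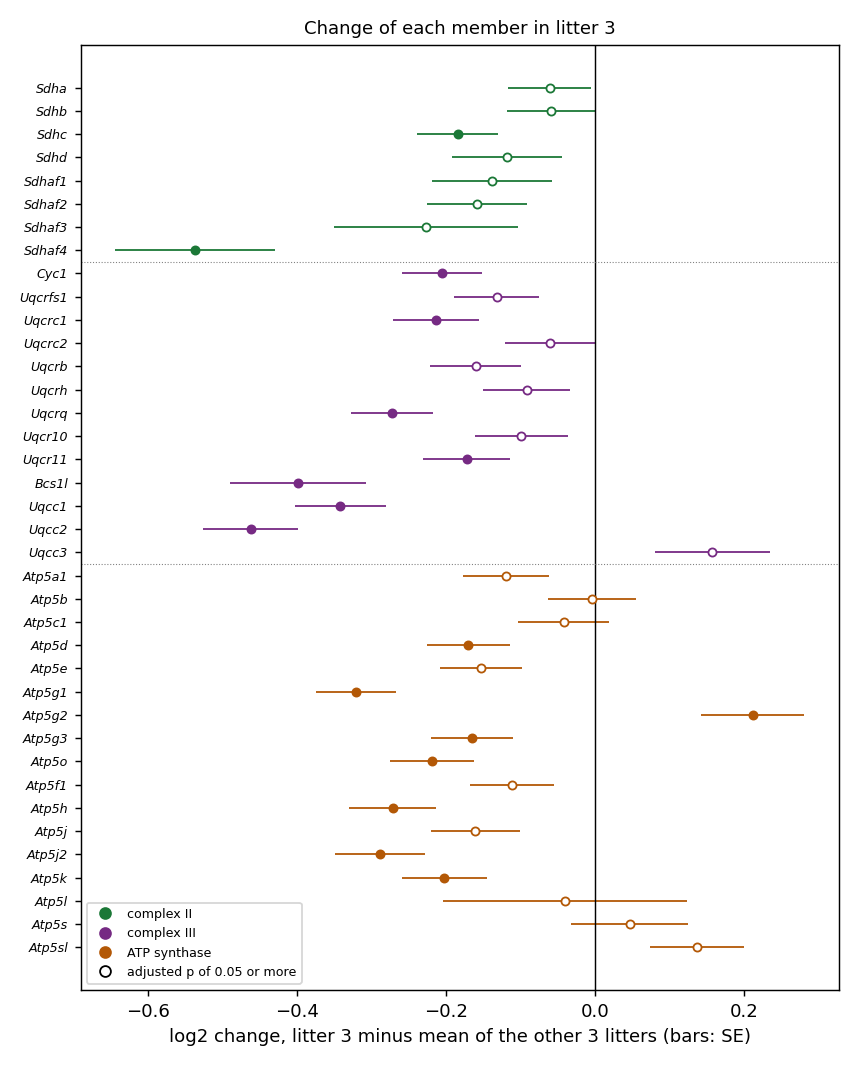
Log2 change of each gene in litter 3 against the mean of the other 3 litters, with bars of 1 SE and filled points for an edgeR adjusted p under 0.05. Sdhaf4 (-0.54), Uqcc2 (-0.46), Bcs1l (-0.40) and Uqcc1 (-0.34) lie farthest to the left, Atp5b lies at 0 and Atp5g2 (0.21) is the filled point on the right.

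Both hearts of litter 3 lay below the other 6 for 13 of the 38 genes, where the background is 16.4% of genes, and above them for 0, where it is 15.1%. The count of 17 genes past the threshold depended on single libraries. The share of 44.7%, against 28.3% of all genes, became 15.8% (6 genes, all genes 15.9%) without the male of litter 3, 15.8% (6 genes, all genes 12.2%) without its female and 23.7% (9 genes, all genes 22.8%) without the male of litter 1. With library size alone as scaling it was 31.6% (12 genes, all genes 29.9%). Counting only lower genes, the 3 fits that left out a library gave 15.8%, 15.8% and 23.7% of the members against 8.02%, 6.96% and 12.2% of all genes, and library size alone gave 28.9% against 12.3%. Uqcc2, Atp5g1 and Uqcrq passed in all 15 alternatives run for litter 3. Among the 30 members that share under 10% of their windows with another gene, 14 were lower and 0 higher in litter 3.

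Other measures moved with litter 3. The summed cardiomyocyte markers were at 55299 and 54886 CPM there, against 59350 to 69515 CPM in the other libraries, with 3 of 8 markers lower (Myh6, Actn2 and Myl3), 4 of 8 above 0 and a median change of -0.06. Myh6, the most abundant of the 8, had 16924 and 16097 CPM in litter 3 against 20391 to 29074 CPM. Fibroblast markers had 51.8 and 32.4 CPM against 108 to 243 CPM, with 6 of 8 lower, and 5 of 8 endothelial markers were lower (18.0 and 19.6 CPM against 16.0 to 148 CPM). Erythroid markers had 529 and 184 CPM against 97.7 to 243 CPM, with 2 of 5 higher. Of 4 atrial genes 1 was higher, Nppa, with 1176 and 1511 CPM in litter 3 and 178 to 475 CPM elsewhere, and the median change of the 4 was -0.22. Lower markers also included 4 of 7 mural (median -1.82) and 2 of 5 epicardial ones (median -0.51). All 8 immediate-early genes were higher, with 1305 and 1204 CPM in sum against 298 to 566 CPM. The part of these differences in the lower levels of the 38 genes was not tested.

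The electron chain around these complexes was compared in the same fit. In litter 3, 26 of 44 tested complex I genes were lower and 0 higher (median -0.22), 3 of 15 complex IV genes were lower (median -0.08), and 0 of 10 mitochondrially encoded mRNAs passed (median -0.02). Thus the 38 genes, with 16 lower and a median of -0.16, lay between complexes I and IV, and no test of the differences between complexes was made. Cytochrome b itself, mt-Cytb, had 27081 and 28472 CPM in litter 3, against 25964 to 38011 CPM elsewhere (log2 change -0.09, SE 0.07).

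Of 52 tested partner genes outside the 38, 15 were lower and 3 higher in litter 3 (median -0.10). Lower genes included 6 of 12 for electron carriers and coenzyme Q synthesis, among them Coq10a (-0.56, SE 0.09), Coq5 (-0.45, SE 0.06), Pdss1 (-0.44, SE 0.09) and Cycs, cytochrome c (-0.37, SE 0.07). Hccs, which attaches heme to cytochrome c and to Cyc1, changed by -0.32 (SE 0.07), Minos1, of the complex that shapes cristae, by -0.32 (SE 0.06) and Tfam, the mitochondrial transcription factor, by -0.29 (SE 0.07). The higher genes were Coq10b (0.37), the regulator Ppargc1a (0.26) and Atpif1, the inhibitor of the ATP synthase (0.18, SE 0.06, edgeR adjusted p = 0.0385). Without the male or the female of litter 3, 11 or 8 of the 52 passed.

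Litter 1 was on the high side. Of the 38 genes, 5 were higher (background 7.86%) and 1 was lower (background 5.41%), with a median of 0.12 and 33 above 0, against a median of -0.00 over all genes. With litter 3 left out the median of the members was 0.064. Uqcc2 changed by 0.32 (SE 0.06, edgeR adjusted p = 0.00456), Atp5k, subunit e, by 0.30 (SE 0.06), Atp5g1 by 0.26 (SE 0.05), Sdhb by 0.24 (SE 0.06) and Atp5j2 by 0.23 (SE 0.06). Atp5k had 304 and 299.8 CPM in litter 1, against 222 to 266 CPM elsewhere, and Sdhb had 647 and 651 CPM against 513 to 586 CPM. Both hearts of litter 1 lay above the other 6 for these 5 genes and for 4 more, 9 in all (background 8.89%). Of the marker lists, 3 of 8 fibroblast and 2 of 8 cardiomyocyte markers were higher in litter 1, and 5 of 8 immediate-early genes, 1 of 7 mural markers and 1 of 4 atrial genes were lower. Their part in these values was not tested.

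Atp5sl, listed by current annotation as Dmac2 and known as a complex I assembly factor, was the lower gene in litter 1, at 59.3 and 57.3 CPM against 62.6 to 75.1 CPM (-0.23, SE 0.06, edgeR adjusted p = 0.0339). DESeq2 did not call Atp5sl there. Without the male or the female of litter 1, 0 of 38 genes passed in either case, and the share of all genes fell to 2.58% and 2.96%. The changes were then 0.22 to 0.34 for the 5 genes higher in litter 1. With litter 3 left out 2 passed, Atp5k and Sdhb (5.26%, against 7.03% of all genes), and the calls of Uqcc2 (0.19), Atp5g1 (0.17), Atp5j2 (0.15) and Atp5sl were lost. The call of Atp5sl was lost in 4 further fits that left out 1 library, those without the male of litter 2, either heart of litter 3 or the female of litter 4 (-0.21 to -0.23). Of the partner genes, 13 of 52 were higher and 0 lower, among them Cycs (0.47, SE 0.06) and Hccs (0.42, SE 0.07). Only 2 partner genes passed without either heart of litter 1, and 5 and 8 passed without the female of litter 2 or the male of litter 3.

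In litter 2, where 4.18% of all genes were called, 1 of the 38 was lower (background 0.879%) and 0 were higher (background 3.3%). This was Atp5g2, at 67.6 and 60.4 CPM against 68.5 to 87.1 CPM, a change of -0.31 (SE 0.07, edgeR adjusted p = 0.0314). The call was lost without the female of litter 1, either heart of litter 2, the female of litter 3 or the male of litter 4, at changes of -0.22 to -0.40, and with litter 3 left out, while 2 genes passed without the female of litter 4. Both hearts lay below the other 6 for 4 genes, Uqcrh, Atp5b, Atp5g2 and Atp5l (background 3.6%). All 17 ATP synthase genes had changes below 0, from -0.39 to -0.01, and the median of the 38 was -0.09 (-0.15 with litter 3 left out), against 0.00 for all genes. Endothelial markers were higher in litter 2, 8 of 8 with 81.4 and 148 CPM in sum against 16.0 to 61.9 CPM, as were 6 of 8 fibroblast, 3 of 7 mural and 2 of 5 epicardial markers, while 7 of 8 immediate-early genes were lower. Their part in these values was not tested.

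In litter 4, 2 genes were higher (background 4.71%) and 0 lower (background 5.8%). Sdhaf1, which helps put iron-sulfur clusters into Sdhb, had 33.6 and 32.8 CPM against 24.8 to 30.03 CPM (0.28, SE 0.08, edgeR adjusted p = 0.0406). Atp5o changed by 0.20 (SE 0.05, adjusted p = 0.0418). With library size alone as scaling, neither passed, and over all genes the split moved from 648 higher and 799 lower to 262 higher and 1501 lower. Without any 1 heart of litters 1, 2 or 4, 0 of the 38 genes passed, where all genes ran from 2.3% to 9.33%, with changes of 0.25 to 0.31 for Sdhaf1 and 0.15 to 0.25 for Atp5o. Sdhaf1 was also lost without the female of litter 3 (0.23) and Atp5o without the male of litter 3 (0.18). With litter 3 left out Atp5o did not pass while Sdhaf1 did, and DESeq2 called Atp5o and not Sdhaf1.

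The median of the 38 genes in litter 4 was 0.13, with 35 above 0, and it was 0.051 with library size alone as scaling and 0.085 with litter 3 left out. Both hearts lay above the other 6 for 7 genes (background 8.23%), namely Sdhaf1, Sdhaf2 and Sdhaf4 of complex II and Atp5c1, Atp5o, Atp5h and Atp5l of the ATP synthase. Complex I had 13 of 44 genes higher there and a median of 0.14. Among the mitochondrially encoded partners, mt-Cytb was higher by 0.35 (SE 0.07, adjusted p = 0.0108), with 38011 CPM in the male and 31858 CPM in the female against 25964 to 28472 CPM in the other 6 libraries. The other mitochondrial partner tested, mt-Atp6, had 12.7 to 22.1 CPM over the 8 libraries, and mt-Atp8 had too few counts to be tested. Other mitochondrially encoded mRNAs were also low, with 12.4 to 26.5 CPM for mt-Co3 and 149 to 255 CPM for mt-Co2. In contrast, mt-Co1 had 49850 to 76752 CPM. Whether reads of the low genes were lost in alignment or counting was not tested, so their levels are uncertain. In litter 4, 6 of 8 fibroblast markers were higher, of 8 cardiomyocyte markers 3 were higher and 2 lower, 1 mural marker was higher and 1 lower, and 1 of 8 immediate-early genes and 1 of 3 tested macrophage markers were lower. Their part in these values was not tested.

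Ring subunit c is made from Atp5g1, Atp5g2 and Atp5g3, which differ in their targeting sequence and are known to give the same mature protein. The last 90 coding bases of each, from the GENCODE M21 transcripts, are shown because they show how far the genes can be told apart by reads from the mature part. They run 5′ to 3′ up to the stop codon, and capitals mark the 24 positions at which the 3 genes are not all the same.
Atp5g1: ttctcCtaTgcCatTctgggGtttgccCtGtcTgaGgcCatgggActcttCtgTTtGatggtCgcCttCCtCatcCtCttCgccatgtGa
Atp5g2: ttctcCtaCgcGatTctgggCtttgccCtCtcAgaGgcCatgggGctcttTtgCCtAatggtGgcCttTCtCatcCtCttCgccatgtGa
Atp5g3: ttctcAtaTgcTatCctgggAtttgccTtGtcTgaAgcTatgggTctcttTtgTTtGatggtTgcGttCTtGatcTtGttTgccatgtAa

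Over the last 228 coding bases, identity was 85.1% between Atp5g1 and Atp5g2, 79.8% between Atp5g1 and Atp5g3 and 78.5% between Atp5g2 and Atp5g3. Between the whole transcripts used for length, the longest identical run was 21, 11 and 9 bases for these pairs. These runs are short of the 100-base windows used to look for shared sequence. Copies elsewhere in the genome are closer, since Gm10175 holds 99.6% of the 100-base windows of Atp5g2 and Gm10039 holds 42.2% of those of Atp5g1, while Atp5g3 shares none.

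Each gene's share of the 3 was computed per kilobase, which does not depend on library scaling. Atp5g3 gave 70.7 ± 0.899%, Atp5g1 25.4 ± 1.39% and Atp5g2 3.95 ± 0.648% of the summed level (SD, n = 8). With the longest annotated coding transcript as length, the share of Atp5g1 would be 5.32% and that of Atp5g3 90.4%, because 1 long transcript of Atp5g1 is annotated. The levels of the shares thus depend on the length used.

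The share of Atp5g1 was 26.3 and 27.4% in the male and the female of litter 1, 25.8 and 26.5% in litter 2, 23.7 and 23.5% in litter 3 and 25.1 and 24.5% in litter 4. No litter overlapped another except litters 1 and 2. Litters took 92.8% of the variance left after the sex means (exact permutation test over 24 matchings, one-sided, p = 0.0417, the smallest possible, adjusted over 3 genes 0.125). Atp5g2 went the other way, with 4.88 and 4.73% in litter 3 and 3.2 to 4.45% in the other libraries (92.6%, exact permutation p = 0.0833, adjusted 0.125). For Atp5g3 the shares lay between 69.1% and 71.8% (70% of variance, exact permutation p = 0.167, adjusted 0.167). With the longest transcript as length, the exact permutation p was 0.0417, 0.0833 and 0.542 for Atp5g1, Atp5g2 and Atp5g3, and with counts not divided by length it was 0.0417, 0.0833 and 0.0417.

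By sex the shares did not differ beyond their spread. The mean difference, male minus female, was -0.27 percentage points for Atp5g1, 0.32 for Atp5g2 and -0.05 for Atp5g3. With 1 library left out it ranged from -0.923 to 0.38 for Atp5g1, from 0.063 to 0.636 for Atp5g2 and from -0.596 to 0.296 for Atp5g3. Over the 70 possible splits a two-sided exact permutation test gave p-values of 0.8, 0.543 and 0.914, all 0.914 after adjustment, where the smallest possible p is 0.0286.

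**Figure D5:**
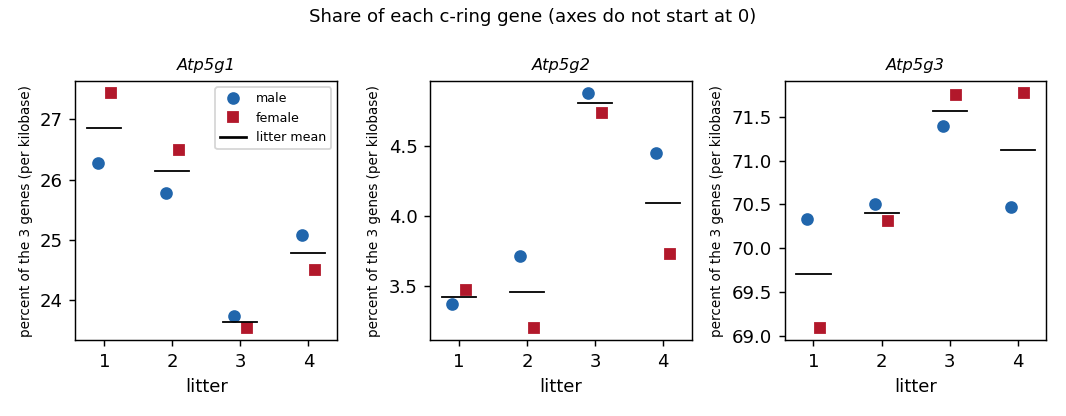
Share of each c-ring gene in the summed level of the 3, in percent per kilobase, by litter, with circles for males, squares for females and a line at the litter mean; axes do not start at 0. In litter 3 the share of Atp5g1 was lowest (23.7 and 23.5%) and that of Atp5g2 highest (4.88 and 4.73%).

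Promoters were searched for the letters of 4 factors that are known to act on respiratory genes, because 16 of the members were lower in litter 3. RefSeq promoters (GRCm38.p6, 250 bases before to 50 after the start, 36 promoters) were matched for 32 of the 38 genes. Each motif was searched on either strand. The NRF1 letters, GCGCA and GCGC with any 1 base between, were in 33.3% of these promoters, against 4.6% of all 32851 promoters and 9.78% of the 12627 promoters of tested genes. The ETS letters CCGGAAG, to which the GABP factor can bind, were in 36.1% (8.86% of all, 16.9% of tested genes), the ERR letters AAGGTCA in 16.7% (4.72%, 3.28%) and the YY1 letters AAGATGGC in 16.7% (2.75%, 4.37%). These matches are descriptions and no measure of binding.

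The promoters of Uqcc2, whose level had the smallest p in litter 3, and of the 3 ring genes, whose shares are given above, are shown 5′ to 3′ on the gene's strand, with matches to any of the 4 motifs in capitals. Uqcc2 lies at chr17:27133842-27134141, Atp5g1 at chr11:96075582-96075881, Atp5g2 at chr15:102670998-102671297 and Atp5g3 at chr2:73911277-73911576, all on the minus strand.
Uqcc2: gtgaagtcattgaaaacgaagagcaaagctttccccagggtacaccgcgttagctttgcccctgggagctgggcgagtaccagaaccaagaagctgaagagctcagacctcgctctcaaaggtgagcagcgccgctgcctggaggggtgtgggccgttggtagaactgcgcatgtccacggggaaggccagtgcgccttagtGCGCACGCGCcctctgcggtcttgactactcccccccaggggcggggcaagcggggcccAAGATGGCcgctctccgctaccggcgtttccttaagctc
Atp5g1: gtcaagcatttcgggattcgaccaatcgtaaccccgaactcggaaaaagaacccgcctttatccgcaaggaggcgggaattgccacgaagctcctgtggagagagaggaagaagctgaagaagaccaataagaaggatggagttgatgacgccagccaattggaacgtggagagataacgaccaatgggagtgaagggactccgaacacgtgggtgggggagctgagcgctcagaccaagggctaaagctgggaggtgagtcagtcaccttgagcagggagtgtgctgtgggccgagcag
Atp5g2: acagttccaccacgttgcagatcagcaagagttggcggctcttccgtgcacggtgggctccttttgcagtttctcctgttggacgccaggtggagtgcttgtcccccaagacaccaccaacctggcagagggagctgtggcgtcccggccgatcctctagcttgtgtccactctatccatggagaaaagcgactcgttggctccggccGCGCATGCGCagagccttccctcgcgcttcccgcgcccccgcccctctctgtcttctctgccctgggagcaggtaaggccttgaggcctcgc
Atp5g3: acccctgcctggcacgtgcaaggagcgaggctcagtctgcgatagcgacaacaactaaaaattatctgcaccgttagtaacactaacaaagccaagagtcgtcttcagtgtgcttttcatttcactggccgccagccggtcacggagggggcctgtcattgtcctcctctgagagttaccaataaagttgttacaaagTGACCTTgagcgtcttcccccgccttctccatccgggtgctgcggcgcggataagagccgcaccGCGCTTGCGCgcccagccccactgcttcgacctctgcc
The capitals are the NRF1 and then the YY1 letters in Uqcc2, the NRF1 letters in Atp5g2, and the ERR letters followed by the NRF1 letters, both on the opposite strand, in Atp5g3. None of the 4 motifs is in the window of Atp5g1. No test of motif against level was made.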

How the data were processed

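Cardiomyocyte RNA of 8 postnatal day 2 hearts was sequenced with a stranded total RNA kit as 100-base single-end reads, per the labels' protocols. The deposited values are counts per gene, which the authors made after alignment; STAR 2.7.3a and mm10 come from the submitters' processing notes, and the counting program and its strand setting are not given in the sources used here. Genes were filtered with filterByExpr, scaled by TMM and tested with edgeR 4.0.16 (quasi-likelihood test, Benjamini-Hochberg, threshold 0.05) in R 4.3.3, with sex alone, with sex and litter, or with 1 litter against the mean of the other 3. The litter numbers pair the samples by design, and the male and the female deviated together in every litter (correlations 0.506, 0.503, 0.696 and 0.367 over all genes). No 2 libraries agreed within sampling noise (chi-square per degree of freedom 7.43 to 53.7 over all 28 pairs). Alternatives were DESeq2 1.42.0 and its size factors, library size alone, other filters, thinned counts, mitochondrial genes left out, litter as a block and each library left out. After seeing the data, the transcript length was changed as described next, and 2 alternatives were added: litter 3 left out in the comparisons of the other litters, and the 30 members that share under 10% of their windows.

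The levels per kilobase divide by the longest coding GENCODE M21 transcript that has a RefSeq match, limited to the RefSeq gene span. This length was chosen after seeing the data. The planned one became an alternative, run as the longest coding transcript with or without a RefSeq match. The reason was that 1 long transcript of Atp5g1 (4715 bases, against 774) was not representative. Any member could be named, those past the threshold first and by size of change; of other genes, those on the partner lists past the threshold, the 3 mitochondrially encoded partners, and markers beside a result. The members and lists were chosen with earlier results of these data known. The code was tested on simulated counts, where the share of false calls was above the threshold in the sex, litter and litter 3 tests, most in the joint litter test.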

Additional observations from a re-analysis of the deposited data

Results flagged for a closer look

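Within the 4 males or the 4 females, 1 library lay far from the other 3 in 4 of 88 groups examined, where chance alone gives about 4.4 at 1 in 20. Sdha stood at 1648 CPM in the male of litter 1 and at 1434 to 1464 CPM in the other males. Uqcc1 stood at 120.1 CPM in the male of litter 3 and at 142 to 147 CPM in the other males. The Atp5g3 share of the ring genes was 71.4% in the male of litter 3 and 70.3 to 70.5% in the other males. Sdhaf2 stood at 43.9 CPM in the female of litter 3 and at 50.9 to 52.3 CPM in the other females.

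Among the pseudogene entries that the choice of members left out, 4 exceeded 3 counts in a library. Atp5k-ps2 reached 8 counts, Atp5l-ps2 reached 6, Uqcrh-ps1 reached 19 and Uqcrh-ps2 reached 10.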

How the results depend on the processing

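No call changed direction under any alternative run. Among values without a call, the member median by sex and the sex differences of the Atp5g1 and Atp5g3 shares changed sign when single libraries were left out. With litter as a replicate block the sex comparison gave 0 members, as without it, and a median of -0.02. By litter, 21 members (55.3%, all genes 32.1%) became 13 (34.2%, all genes 34.3%; median range 0.22) with library size alone, 10 (26.3%, all genes 24.3%) without the sex term and 4 (10.5%, all genes 13.7%; median range 0.20) with litter 3 left out, and 29 (76.3%, all genes 23%) with no filter; partner genes became 12 without the sex term and 9 without litter 3. In litter 1, 10 members (26.3%, all genes 9.58%) passed with no filter and 2 (5.26%, all genes 7.03%) without litter 3 (median 0.064, partner genes 6). In litter 2, 2 members (5.26%, all genes 5.03%) passed with no filter and 0 (all genes 1.95%) without litter 3 (median -0.15); the median was -0.062 with library size alone, and partner genes numbered 1 with DESeq2, 2 with no filter and 1 without litter 3. In litter 3 the median was -0.11 with library size alone. In litter 4, 0 members (all genes 12.8%) passed with library size alone (median 0.051, partner genes 9), 1 (2.63%, all genes 7.52%) with DESeq2 and 7 (18.4%, all genes 8.34%) with no filter, and the median was 0.085 without litter 3. The share of variance of Atp5g3 between litters was 74.7% in counts not divided by length, past 0.05 before adjustment. Leaving out 1 library at a time gave 7 to 20 members by litter (all genes 21.4 to 29.6%), 0 to 9 in litter 1 (all genes 2.58 to 13.4%), 0 to 2 in litter 2 (all genes 1.1 to 5.37%), 6 to 19 in litter 3 (all genes 12.2 to 27.3%) and 0 to 2 in litter 4 (all genes 2.3 to 9.33%). At the low end the members' share was 18.4% by litter (all genes 21.5%) and 15.8% in litter 3 (all genes 15.9 and 12.2%). Partner genes ranged over 11 to 22, 2 to 13, 0 to 2, 8 to 18 and 1 to 5 in the same order. Member medians ranged over 0.26 to 0.31, 0.11 to 0.14, -0.11 to -0.0599, -0.18 to -0.14 and 0.10 to 0.13, and by sex from -0.07 to 0.01. Depth limits Atp5l most, at 75 counts in the shallowest library.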
